A study of Homo sapiens with 13 samples.

Results

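A set of 31 genes that the tumour suppressor p53 is known to activate was followed in DLD-1 cells after knockdown of SOX9 or of Y14. They stand among the 23886 gene symbols in 2 deposited comparison tables, and all 31 were listed in both tables. They were chosen by name, with earlier results of these data known. A mean normalised read count of at least 10 was reached by 30 of them in each table. The exception in both was SPATA18, a gene of mitochondrial quality control, with 0.0699 in siSOX9 and 0.0967 in siCtrl libraries of the first table, and 0.697 in siY14 and 2.36 in siCtrl libraries of the second.

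DLD-1 is a colorectal adenocarcinoma line of Dukes' type C, and all 13 samples are of this line. Every group was transfected with 50 nM of small interfering RNA (siRNA) and harvested at 72 h. The title of the series asks about SOX9 in splicing and in transcription, and gene-level reads bear on transcript levels. The first table sets 4 samples with an siRNA against SOX9 (siSOX9) against 3 with a control siRNA (siCtrl), drawn from experiments 1 and 2. The second sets 4 samples with an siRNA against Y14 (siY14) against 2 siCtrl samples of experiment 3. The siY14 arm pools 2 siRNAs, No9 and No10, with 2 samples of each. Each table thus has its own controls. The labels do not say whether samples of a group came from separate cultures, so the p-values reflect the spread among these samples alone, and that spread may be technical.

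p53 is a transcription factor that DNA damage and other stresses stabilise. It binds pairs of a short half-site in the DNA and switches on genes that stop the cell cycle, repair DNA, change metabolism or start cell death, and also genes such as MDM2 whose products shut p53 down again. SOX9 regulates transcription in cells at the base of intestinal crypts. Y14, encoded by RBM8A, belongs to the exon junction complex, which marks mRNA where introns were removed.

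Promoter windows from RefSeq (GRCh38.p14, 250 bases before to 50 after the start of a gene) were matched by symbol for 24 of the 31 genes. The p53 half-site consensus, a pattern of 10 bases that is its own reverse complement, was found in the windows of 6 of these 24 genes, against 8.06% of the 27305 genes in the table. The 6 were AEN, DDB2, FAS, FDXR, PLK2 and RPS27L. The sequence ACAAT, a core bound by SOX proteins and searched on both strands, was present in the windows of 4 of the 24 (E2F7, FBXW7, XPC and ZMAT3), against 31.8% of all genes. A match of letters is a description of the window and not of binding. Windows with a p53 half-site are printed for 4 genes that passed a test in one of the comparisons, none of which holds ACAAT. They are AEN at chr15:88621090-88621389 (plus strand), RPS27L at chr15:63157428-63157727 (minus strand), DDB2 at chr11:47214724-47215023 (plus strand) and PLK2 at chr5:58460037-58460336 (minus strand). Capitals mark the half-sites, and each sequence runs 5′ to 3′ along its gene.
AEN: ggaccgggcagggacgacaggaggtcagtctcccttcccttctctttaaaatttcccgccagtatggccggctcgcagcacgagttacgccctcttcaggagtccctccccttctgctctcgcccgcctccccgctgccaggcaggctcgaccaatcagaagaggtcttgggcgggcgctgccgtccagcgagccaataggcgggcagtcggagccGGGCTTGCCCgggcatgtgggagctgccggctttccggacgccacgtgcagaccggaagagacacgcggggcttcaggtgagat
RPS27L: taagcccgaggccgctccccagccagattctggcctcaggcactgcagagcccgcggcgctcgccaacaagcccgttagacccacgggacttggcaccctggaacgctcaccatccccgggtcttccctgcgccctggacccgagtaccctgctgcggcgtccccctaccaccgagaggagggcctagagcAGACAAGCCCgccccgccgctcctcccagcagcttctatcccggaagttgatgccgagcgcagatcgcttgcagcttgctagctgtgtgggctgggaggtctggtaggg
DDB2: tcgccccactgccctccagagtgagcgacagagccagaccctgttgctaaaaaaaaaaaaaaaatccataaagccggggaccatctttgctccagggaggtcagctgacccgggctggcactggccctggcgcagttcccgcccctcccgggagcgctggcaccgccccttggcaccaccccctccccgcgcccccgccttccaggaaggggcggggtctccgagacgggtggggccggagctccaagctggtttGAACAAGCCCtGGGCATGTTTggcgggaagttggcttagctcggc
PLK2: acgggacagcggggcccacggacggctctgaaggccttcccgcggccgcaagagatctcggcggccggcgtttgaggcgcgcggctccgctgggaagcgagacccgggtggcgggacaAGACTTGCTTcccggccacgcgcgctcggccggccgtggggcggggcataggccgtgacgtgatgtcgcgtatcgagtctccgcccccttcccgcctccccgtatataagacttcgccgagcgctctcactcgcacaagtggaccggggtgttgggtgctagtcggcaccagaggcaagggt
Counting from the gene start as position 1, the half-site of AEN begins at position -34, that of RPS27L at -59 and that of PLK2 at -132. DDB2 has 2 half-sites, at positions 6 and 17, which lie 1 base apart. A pair of half-sites with a spacer of at most 13 bases, the form of a full p53 site, was found in 1 member window of 36 (some genes have several) and in 0.0285% of all 35116 windows. The half-site of FDXR, at position -11, has the same letters as that of AEN, GGGCTTGCCC.

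The deposited tables hold arm means only, so whole reads per library were recovered from the digits of those means. Recovery succeeded in both arms for 29 members with siSOX9 and for 28 with siY14. CCNG1 failed in both tables, and TNFRSF10B in that of siY14. PERP, with arm means over 20000, was not tried in either table. For 2 of these members in the siSOX9 table, TNFRSF10B and PLK2, several sets of reads gave the printed means. The same held in that of siY14 for 12 members: MDM2, PPM1D, GADD45A, PLK2, E2F7, TNFRSF10A, TNFRSF10D, AEN, TRIAP1, XPC, RRM2B and C12orf5. In each case the likeliest set is used, which can make the spread of these members too small. Recovered libraries carry no sample name and are lettered by depth, a being the deepest of its arm. Estimated depth was 24.9 to 185 M counts for siSOX9 and 24.9 to 178 M for siCtrl libraries, with library a of each arm far above the rest. In the siY14 table it was 50.3 to 72.8 M for siY14 and 45.7 to 65.0 M for siCtrl libraries. In the authors' deposited tables SOX9 averaged 9067 normalised reads with siSOX9 and 24468 with siCtrl, a log2 fold change of -1.43 (adjusted p = 0.00014). RBM8A was listed at 0 in both tables, so the Y14 knockdown could not be checked at its own mRNA. Epithelial markers differed in level. EPCAM had 25877 with siSOX9 and 30894 with siCtrl, and 45507 with siY14 and 51818 with siCtrl, while CDX1 stood at or near 0 (0.618 with siSOX9 and 2.83 with siCtrl, 0 with siY14 and 0.637 with siCtrl). Of 7 immune markers, the leukocyte gene PTPRC and the T cell genes CD3E and CD3D stood below 1 in every arm, and CD68 and CD14 were the highest, with CD68 at 82.5 with siSOX9 and 70.2 with siCtrl, and 77.0 with siY14 and 76.6 with siCtrl. CD14 had 72.8 with siSOX9 and 99.9 with siCtrl, and 52.9 with siY14 and 49.9 with siCtrl.

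Knockdown of SOX9 lowered 1 of the 31 genes and raised none by the authors' test. TNFRSF10B, the death receptor DR5 for the ligand TRAIL, passed their adjusted p of 0.05, a rule that 3.47% of all 18747 genes with reads passed (1.19% higher and 2.27% lower). By limma-voom on the recovered reads, 6 of 28 testable members were higher and 1 was lower, against 6.64% higher and 9.49% lower among the 11269 genes tested (16.1% in either direction). The 6 were PLK2, C12orf5 (the older symbol of TIGAR), TNFRSF10D, BTG2, CDKN1A and POLH, and none of them passed the authors' adjusted p. In bulk RNA, a change in the number of cells that express a gene and a change in RNA per cell cannot be told apart.

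TNFRSF10B had 4111, 3673, 3742 and 3788 normalised reads in the siSOX9 libraries a to d, against 6417, 5646 and 5532 in the siCtrl libraries a to c. All siSOX9 libraries lay below all siCtrl libraries. In the authors' deposited table the log2 fold change was -0.62 (adjusted p = 0.013). Limma-voom gave -0.62 ± 0.08 (SE) with an adjusted p of 0.00131, and the call held whichever single library was left out. Of 2 sets of reads that give the siSOX9 mean of TNFRSF10B, the likeliest is shown, which can make its spread and SE too small. A stretch of 67 bases, 1.62% of its exon bases, lies opposite exons of RHOBTB2, and whether reads were counted by strand is not given in the sources used here.

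**Figure D1:**
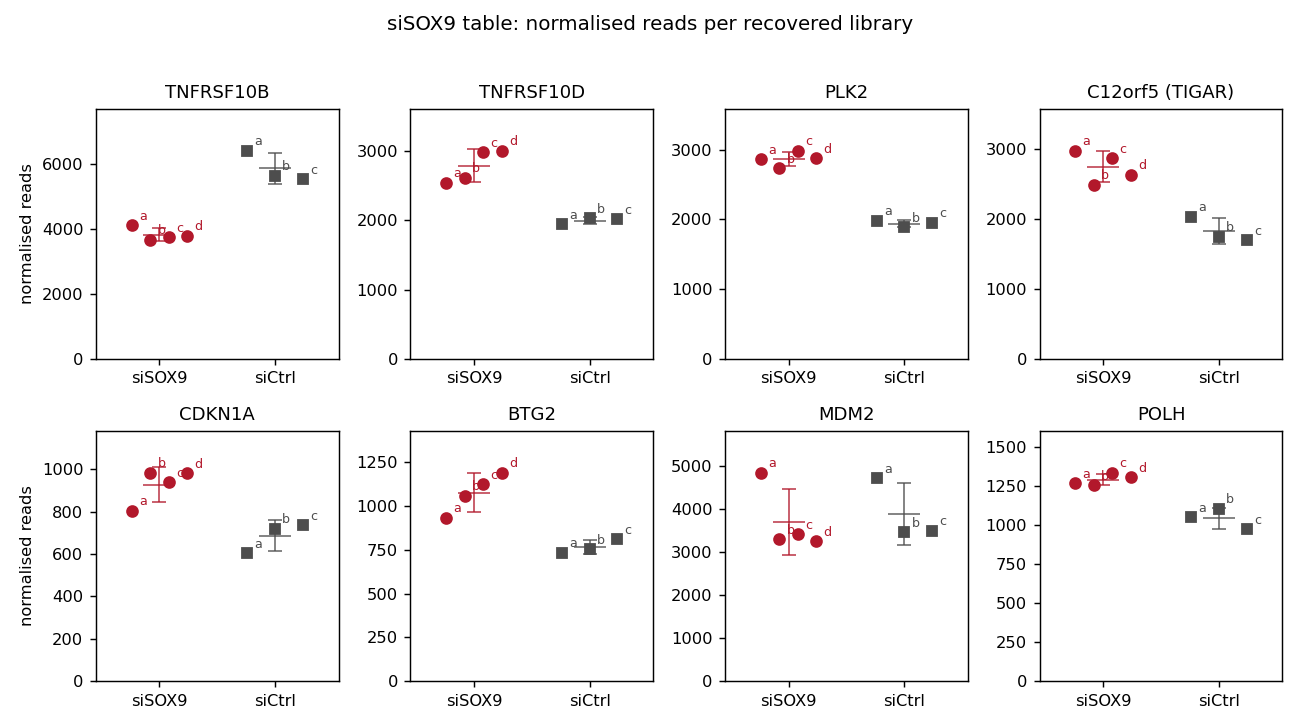
Normalised reads (y axis, from 0) of 8 genes in the recovered siSOX9 libraries (circles) and siCtrl libraries (squares), with the mean and SD of each arm as bars and library letters by depth. TNFRSF10B sits lower and PLK2, C12orf5, TNFRSF10D, CDKN1A, BTG2 and POLH higher in every siSOX9 library, while for MDM2 library a stands above the others in both arms.

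The other receptors of the family took other values. TNFRSF10D, a decoy receptor that binds TRAIL without signalling death, had 2544, 2616, 2982 and 3007 normalised reads in siSOX9 libraries, against 1944, 2028 and 2016 in siCtrl libraries. These groups did not overlap. The authors' deposited table gives it 0.48 on the log2 scale (adjusted p = 0.273), and limma-voom gave 0.47 ± 0.08 with an adjusted p of 0.00649. TNFRSF10A, the death receptor DR4, ranged from 1201 to 1421 in siSOX9 and from 1362 to 1610 in siCtrl libraries, which overlapped. FAS, the receptor for FAS ligand, ranged from 654 to 984 with siSOX9 and from 633 to 849 with siCtrl.

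Among the arrest genes, the libraries of PLK2, BTG2 and CDKN1A did not overlap. PLK2, a polo-like kinase of the stress response, had 2864, 2737, 2989 and 2880 normalised reads in siSOX9 libraries, against 1982, 1889 and 1953 in siCtrl libraries. The authors' deposited table gives it a log2 fold change of 0.56 (adjusted p = 0.0719), just outside their threshold. With limma-voom it rose by 0.56 ± 0.06 (adjusted p = 0.000876), in 4 of 4 libraries. Of 2 sets of reads that give the siSOX9 mean of PLK2, the likeliest is shown, so its spread and SE can be too small. BTG2, an antiproliferative protein, had 933, 1059, 1125 and 1192 in siSOX9 libraries, against 732, 753 and 810 in siCtrl libraries. Limma-voom called this rise at 0.47 ± 0.10 (adjusted p = 0.0163), while the adjusted p of the authors' deposited table was 0.348. The limma-voom call was lost without siCtrl library a (adjusted p = 0.0723) or b (0.0511).

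CDKN1A encodes p21, the inhibitor of cyclin-dependent kinases through which p53 halts the cell cycle. It had 805, 984, 940 and 982 normalised reads in siSOX9 libraries, against 604, 719 and 737 in siCtrl libraries. Every siSOX9 library exceeded every siCtrl library. The authors' deposited table gives a log2 fold change of 0.43 (adjusted p = 0.31). Limma-voom gave 0.44 ± 0.12 with an adjusted p of 0.0328, a call that was lost without any one library other than siSOX9 library a, with adjusted p-values of 0.0548 to 0.151.

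GADD45A, PLK3, E2F7 and FBXW7 had overlapping or interleaved libraries in this table. By the authors' deposited table their log2 fold changes were 0.05 for the growth arrest gene GADD45A, -0.13 for the polo-like kinase PLK3, 0.05 for the repressor E2F7 and 0.16 for the ubiquitin ligase subunit FBXW7.

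C12orf5 encodes TIGAR, a fructose bisphosphatase that slows glycolysis. Its libraries read 2975, 2489, 2868 and 2628 with siSOX9, against 2032, 1746 and 1692 with siCtrl, again without overlap. The authors' deposited table gives it a log2 fold change of 0.59 (adjusted p = 0.0609), and limma-voom gave 0.57 ± 0.10 with an adjusted p of 0.00508. Like TNFRSF10B, PLK2 and TNFRSF10D, it was called by limma-voom in all 7 fits that left out 1 library. FDXR, a mitochondrial ferredoxin reductase, ranged from 1177 to 1241 with siSOX9 and from 1048 to 1105 with siCtrl. These groups did not overlap, but its limma-voom adjusted p was 0.2.

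Of the repair genes, POLH, the DNA polymerase eta that copies past ultraviolet damage, had 1269, 1256, 1338 and 1310 normalised reads with siSOX9 and 1051, 1106 and 974 with siCtrl. Limma-voom gave 0.30 ± 0.07 with an adjusted p of 0.0272, against 0.818 in the authors' deposited table. The limma-voom call was lost without any one library other than siSOX9 library a, with adjusted p-values of 0.0509 to 0.0957. XPC and DDB2, which recognise damaged DNA, had log2 fold changes of -0.07 and 0.00, and the ribonucleotide reductase subunit RRM2B had 0.25, by the authors' deposited table. None of the 3 passed either test.

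MDM2, the ubiquitin ligase that degrades p53, had 4843, 3291, 3414 and 3255 normalised reads in siSOX9 libraries, against 4707, 3452 and 3491 in siCtrl libraries. Library a was the highest of both arms, and the siSOX9 libraries lay on both sides of the siCtrl libraries. By the authors' deposited table its log2 fold change was -0.07 (adjusted p = 1). MDM4, its partner, and the phosphatase PPM1D were at -0.18 and 0.29 on the log2 scale by the authors' deposited table, with limma-voom adjusted p of 0.611 and 0.219. Cyclin G1 (CCNG1), known only by its arm means, had 10058 with siSOX9 and 12036 with siCtrl. TP53INP1, a stress-induced regulator of p53, was low, with 20.2 to 37.1 in siSOX9 and 12.3 to 30.5 in siCtrl libraries.

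None of the remaining death and survival genes passed a test with siSOX9, and PERP had no limma-voom test. PERP, a membrane protein of desmosomes and apoptosis, had arm means of 36225 with siSOX9 and 53138 with siCtrl, and the authors' deposited table gives it a log2 fold change of -0.55 (adjusted p = 0.374). PHLDA3, which restrains AKT, was low and spread, with 4.14 to 18.5 in siSOX9 and 14.98 to 33.2 in siCtrl libraries. ZMAT3, an RNA-binding zinc finger protein, had 1168 to 1694 with siSOX9 and 882 to 1238 with siCtrl. Log2 fold changes of the others in the authors' deposited table ran from -0.08 for RPS27L to 0.38 for TRIAP1, with AEN, PIDD and TP53I3 between them.

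In size, the log2 fold changes of the 30 members after siSOX9 had a median of 0.14, with 20 above 0 and 10 below, beside a median of 0.013 and 52.1% above 0 over 13649 genes with the same minimum. Their median absolute log2 fold change was 0.22, against 0.17 over those genes. In 7 of 28 members all siSOX9 libraries lay above all siCtrl libraries, against 12.9% of the genes tested. In 1 member they all lay below, against 15% of genes (27.9% in either direction). They lay on both sides in MDM2, GADD45A and RPS27L, against 15.4% of genes.

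**Figure D2:**
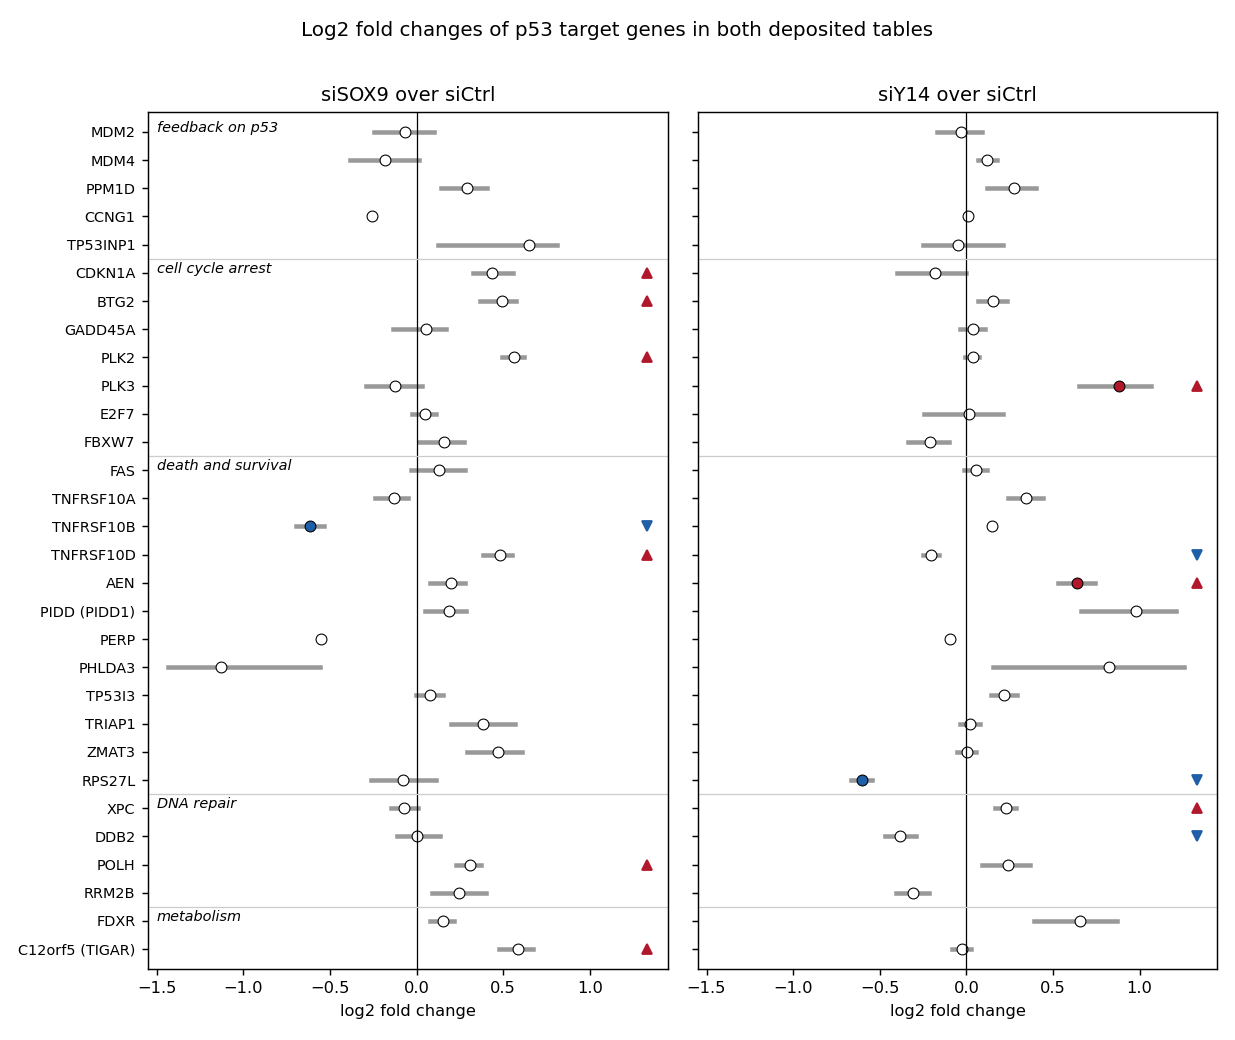
Log2 fold changes of the 30 members with a mean of at least 10, siSOX9 over siCtrl on the left and siY14 over siCtrl on the right, grouped by role. Circles are the authors' values (red or blue where their adjusted p was at most 0.05), grey bars span limma-voom's estimate ± 1 SE, and triangles mark limma-voom calls. TNFRSF10D is marked in both panels, up on the left and down on the right.

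Knockdown of Y14 raised 2 of the 31 genes, AEN and PLK3, and lowered 1, RPS27L, by the authors' test. Over the 17706 genes with reads, 9.16% passed that test, 3.81% higher and 5.35% lower. By limma-voom, 3 of 27 testable members rose (AEN, PLK3 and XPC) and 3 fell (RPS27L, DDB2 and TNFRSF10D), against 13.4% higher and 13.5% lower among 11661 genes (26.9% in either direction). With only 2 siCtrl libraries in this table, no member was called by limma-voom once either of them was left out, when 1 and 3 genes of the whole table passed. With any 1 siY14 library left out, AEN and RPS27L kept their calls. PLK3, DDB2 and TNFRSF10D lost theirs without siY14 library b or d, and XPC without a, c or d, with adjusted p-values of 0.0517 to 0.09. This model and the joint one below took the 4 siY14 libraries as independent. Yet the deviations from the arm mean correlated at 0.92 between a and c and at 0.91 between b and d. A fit without 1 siY14 library still holds its partner, so it is a weak check.

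AEN, an exonuclease that digests DNA and RNA during apoptosis, had 6397, 7521, 6269 and 7426 normalised reads in siY14 libraries a to d, against 4432 and 4418 in siCtrl libraries a and b. Every siY14 library was higher, with b and d above a and c. The authors' deposited table gives it a log2 fold change of 0.64 (adjusted p = 0.0081). Limma-voom gave 0.64 ± 0.11 with an adjusted p of 0.0141. Of 57 sets of reads that give its siY14 mean, the likeliest is shown.

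PLK3 had 803, 1094, 808 and 1186 normalised reads in siY14 libraries, against 520 and 537 in siCtrl libraries. The groups did not overlap, and again b and d stood above a and c. By the authors' deposited table its log2 fold change was 0.88 (adjusted p = 0.0249), and limma-voom gave 0.86 ± 0.21 with an adjusted p of 0.0324. Its close relative PLK2 had 6331, 6188, 6201 and 6204 with siY14, against 6199 and 5958 with siCtrl, values that overlapped (limma-voom log2 fold change 0.03 ± 0.04, adjusted p = 0.556). Of 14 sets of reads that give the siY14 mean of PLK2, the likeliest is shown.

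RPS27L, a ribosomal protein S27-like product that binds MDM2, had 1476, 1380, 1479 and 1401 normalised reads in siY14 libraries, against 2193 and 2166 in siCtrl libraries. All siY14 libraries lay below both siCtrl libraries by far more than either arm spread. The authors' deposited table gives a log2 fold change of -0.60 (adjusted p = 0.0105), and limma-voom gave -0.61 ± 0.06 with an adjusted p of 0.00549.

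PIDD, the symbol used for PIDD1, a scaffold that activates caspase-2, had the highest log2 fold change of the 31 genes with siY14, which the authors' deposited table gives as 0.98 (adjusted p = 0.0662). It had 484, 792, 505 and 762 normalised reads in siY14 libraries, against 330 and 316 in siCtrl libraries. The groups did not overlap, yet the siY14 libraries spread from 484 to 792 and the limma-voom adjusted p was 0.0503. FDXR likewise had 808, 1229, 786 and 1199 with siY14, against 621 and 654 with siCtrl, with adjusted p-values of 0.177 by the authors' deposited table and 0.095 by limma-voom.

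**Figure D3:**
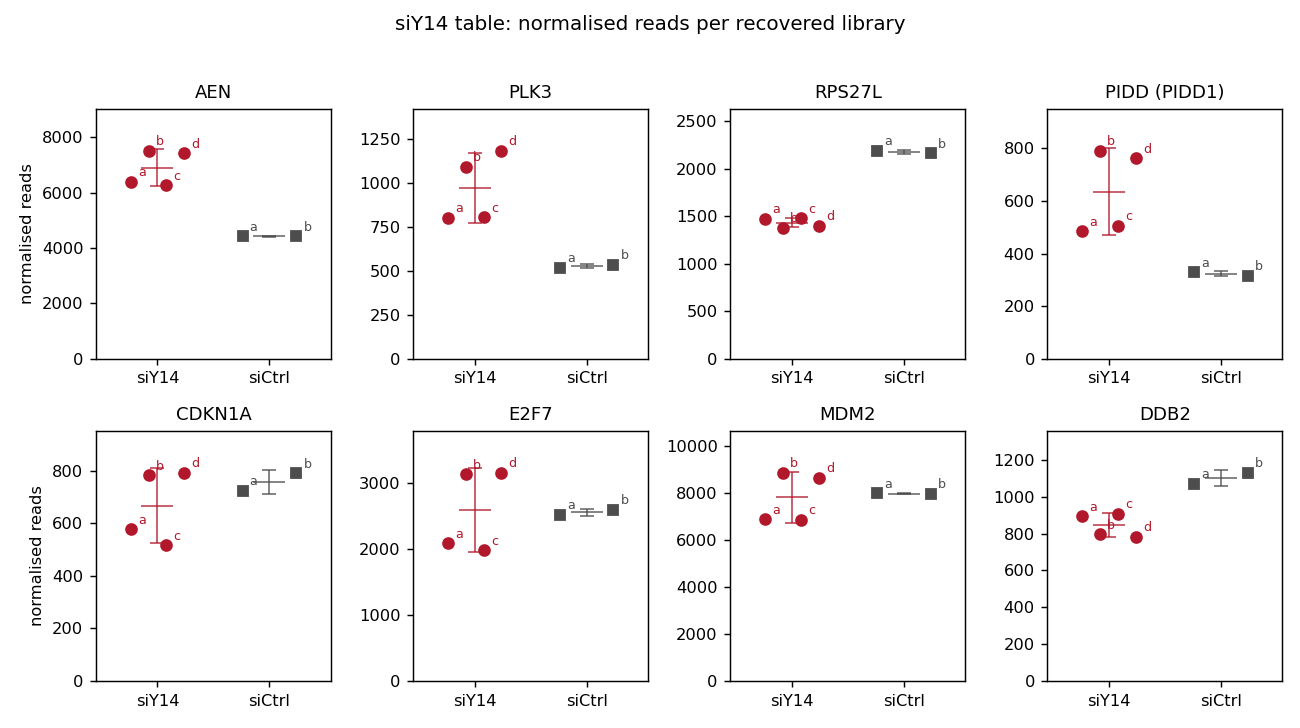
Normalised reads (y axis, from 0) of 8 genes in the recovered siY14 libraries (circles) and siCtrl libraries (squares), with the mean and SD of each arm as bars. AEN, PLK3 and PIDD are higher and RPS27L and DDB2 lower in every siY14 library; for CDKN1A, E2F7 and MDM2 libraries a and c lie below both siCtrl libraries, and b and d lie near or above them.

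Of the 4 repair genes, XPC was higher and DDB2 lower with siY14 by limma-voom. XPC had 4195, 3905, 4291 and 4173 normalised reads with siY14, against 3437 and 3638 with siCtrl (limma-voom log2 fold change 0.23 ± 0.06, adjusted p = 0.0433). It shares 318 exon bases, 8.30% of its own, with LSM3 on the opposite strand. DDB2 had 896, 797, 909 and 783 with siY14, against 1071 and 1132 with siCtrl (-0.38 ± 0.09, adjusted p = 0.0313 by limma-voom). RRM2B was also lower in every siY14 library, at 2813 to 3387 against 3747 to 3928 with siCtrl, and missed the limma-voom threshold with an adjusted p of 0.0562. POLH was higher in every siY14 library, at 1222 to 1594 against 1172 to 1181 with siCtrl, with an adjusted p of 0.236 by limma-voom. None of the 4 passed the adjusted p of the authors' deposited table. The likeliest set of siY14 reads is used, of 5 for XPC and of 3 for RRM2B, so their spread can be too small.

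Of the TRAIL receptors, TNFRSF10A had 2713, 3243, 2800 and 3217 normalised reads with siY14, against 2299 and 2410 with siCtrl, and its limma-voom adjusted p of 0.0504 fell just outside the threshold. TNFRSF10D had 3624, 3563, 3618 and 3699 with siY14, against 4166 and 4191 with siCtrl (limma-voom -0.21 ± 0.05, adjusted p = 0.0269). For TNFRSF10A and TNFRSF10D the likeliest of 3 sets of siY14 reads is shown, so their spread can be too small. TNFRSF10B, known only by its arm means in this table, had 11160 with siY14 and 10063 with siCtrl. FAS ranged from 1046 to 1142 with siY14 and from 1026 to 1055 with siCtrl.

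For several of the best known p53 targets the siY14 libraries fell on both sides of the controls, a layout also seen in 22.4% of all genes. MDM2 had 6875, 8856, 6857 and 8639 normalised reads in siY14 libraries, against 7976 and 7953 in siCtrl libraries. Libraries a and c were below both controls and b and d above both. CDKN1A had 576, 784, 515 and 792 with siY14, against 724 and 790 with siCtrl, so that a and c were below both controls, b lay between them and d was just above. E2F7 had 2088, 3141, 1988 and 3163 with siY14, against 2526 and 2598 with siCtrl, and GADD45A had 5212, 5867, 5181 and 5783, against 5360 and 5383. The arm means of these 4 genes do not show that split, and their log2 fold changes in the authors' deposited table were -0.03, -0.18, 0.02 and 0.04. For MDM2, E2F7 and GADD45A the split can be partly built in by the choice among sets of reads. Of the sets of reads that give the siY14 means, 53 for MDM2, 11 for GADD45A and 2 for E2F7, the likeliest is shown. CDKN1A had 1 set.

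Such a layout, with siY14 libraries on both sides of all siCtrl libraries, was seen in 5 of 27 members (MDM2, CDKN1A, E2F7, GADD45A and the survival gene TRIAP1), against 22.4% of the 11661 genes. Libraries a and c lay together on one side of b and d in 24 of the 27 members, against 84.3% of genes. For 12 of the 27, several sets of reads gave the means. The choice among sets favoured the pattern of deviations seen in other genes of the arm. For these members the split can thus be partly built in. The arm holds 2 samples of each siRNA, but the recovered libraries carry no sample names, so whether this split follows the siRNA was not tested. All siY14 libraries lay above all siCtrl libraries in 11 of the 27 and below in 5, against 32.4% and 31.3% of genes (63.6% in either direction).

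None of the other feedback genes passed a test with siY14, and CCNG1 had no limma-voom test. MDM4 had 1967 to 2057 normalised reads with siY14 and 1840 to 1861 with siCtrl. PPM1D had 2068 to 2719 with siY14 and 1905 to 2042 with siCtrl, and neither gene's groups overlapped. Their limma-voom adjusted p were 0.141 and 0.197. CCNG1 had arm means of 18215 with siY14 and 18112 with siCtrl, and TP53INP1 stayed low, at 27.2 to 37.1 in siY14 and 27.8 to 39.5 in siCtrl libraries. Of the arrest genes, BTG2 had 796 to 888 with siY14 and 730 to 774 with siCtrl, and FBXW7 had 1632 to 2106 with siY14 and 2113 to 2202 with siCtrl. Neither passed a test.

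Among the other death and survival genes, TP53I3, an oxidoreductase, had 1375 to 1529 normalised reads with siY14 and 1214 to 1276 with siCtrl, without overlap, at a limma-voom adjusted p of 0.076. ZMAT3 had 2021 to 2090 with siY14 and 2010 to 2105 with siCtrl. PHLDA3 ranged from 24.5 to 75.3 with siY14 and from 19.7 to 30.6 with siCtrl. PERP had arm means of 84926 with siY14 and 90477 with siCtrl. C12orf5 had 2941 to 3042 with siY14 and 2955 to 3132 with siCtrl, which overlapped.

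Over the 30 members, the log2 fold changes with siY14 had a median of 0.036, with 20 above 0 and 10 below, beside a median of -0.0013 and 49.9% above 0 over 13444 genes. Their median absolute log2 fold change was 0.19, against 0.29 over those genes. By role, the medians were 0.16 with siSOX9 and 0.036 with siY14 for the 7 arrest genes, and 0.10 with siSOX9 and 0.10 with siY14 for the 12 death and survival genes. The 5 feedback genes had medians of -0.07 with siSOX9 and 0.01 with siY14, and the 4 repair genes had 0.13 with siSOX9 and -0.04 with siY14.

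**Figure D4:**
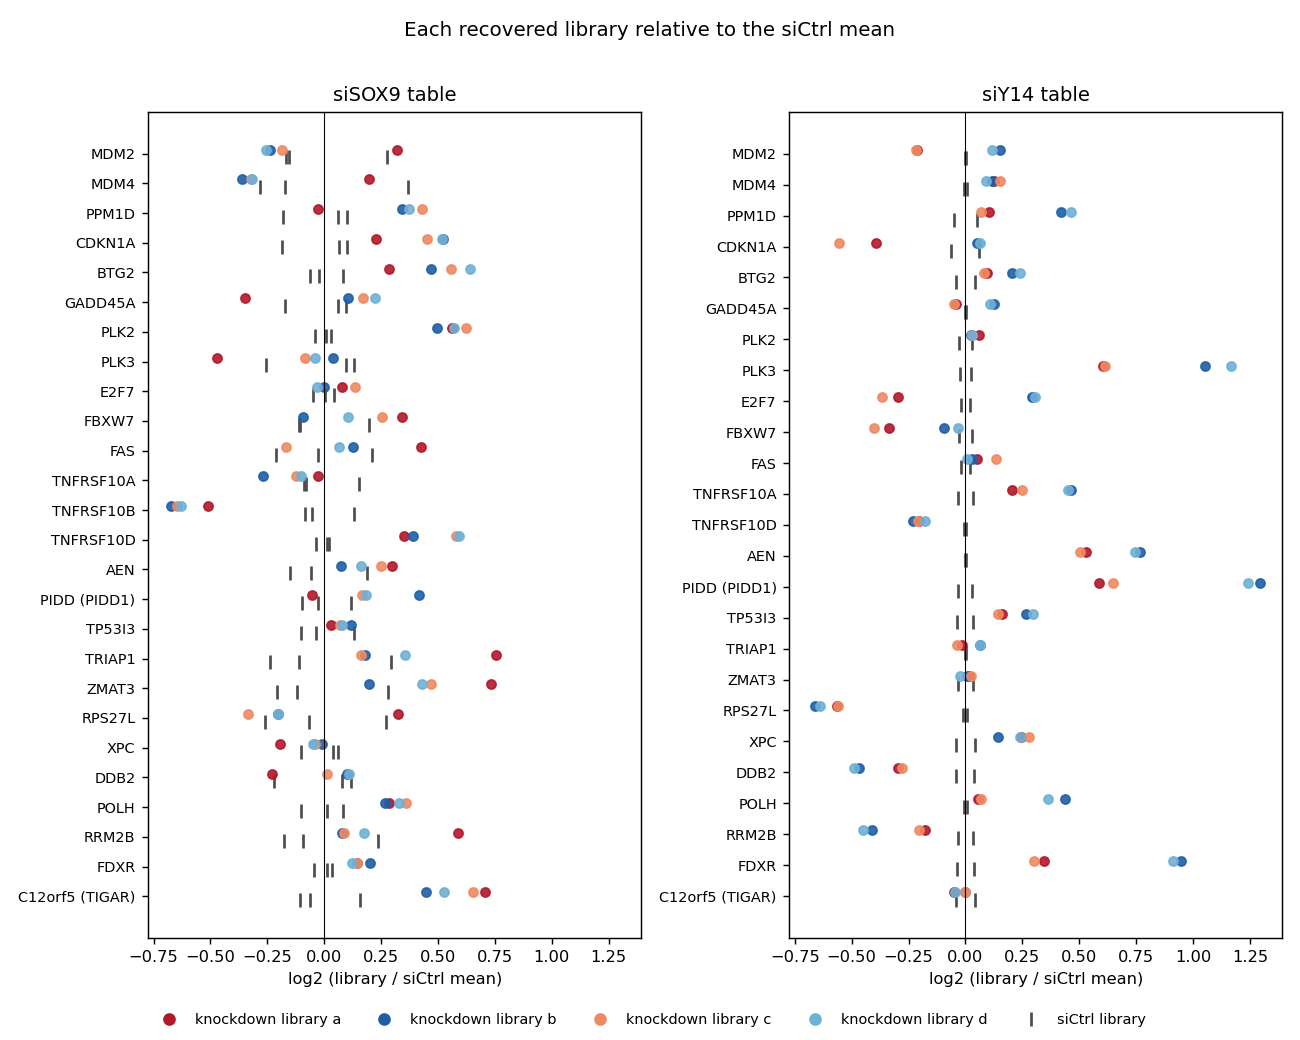
Each recovered knockdown library (circles, coloured by letter) and siCtrl library (ticks) as log2 of its normalised reads over the siCtrl mean, for members with recovered reads and a mean of at least 100; siSOX9 table left, siY14 table right. In the siSOX9 table library a often stands apart. In the siY14 table a and c lie on one side of b and d in most members, but not in PLK2, TNFRSF10D and C12orf5. For members with several sets of reads this layout can be partly built in.

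The 2 knockdowns were compared directly in one limma-voom model that joined the tables, in which each effect is taken against its own controls. Of 27 members tested, 6 differed, against 21.4% of 10559 genes, 3 with a higher and 3 with a lower siY14 effect (11.5% and 9.9% of genes). The siY14 effect exceeded the siSOX9 effect for PLK3 by 0.99 ± 0.27 (SE, log2; adjusted p = 0.022), for TNFRSF10A by 0.49 ± 0.15 (adjusted p = 0.0319) and for AEN by 0.47 ± 0.15 (adjusted p = 0.042). The siY14 effect was below the siSOX9 effect for TNFRSF10D by -0.66 ± 0.11 (adjusted p = 0.00129), for C12orf5 by -0.60 ± 0.13 (adjusted p = 0.00647) and for PLK2 by -0.52 ± 0.08 (adjusted p = 0.00124). The pair of polo-like kinases thus had opposite signs of this difference. CDKN1A differed by -0.64 ± 0.23 and did not pass, with an adjusted p of 0.0628.

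Without either siCtrl library of the siY14 table, the joint model called 2 or 3 members of 27, none of them with a higher siY14 effect, and 6.77% or 8.63% of all genes. PLK2 and TNFRSF10D were called in all 13 fits that left out 1 library. PLK3 lost its call only in these fits without a siY14-table control (adjusted p = 0.108 and 0.0762), and C12orf5 only without siCtrl library a of that table (0.0633). AEN lost its call in 9 of the 13 fits and TNFRSF10A in 7, with adjusted p-values of up to 0.157. Of the members that the joint model called with all libraries, only PLK3 had 1 set of reads in every arm. For AEN, C12orf5, PLK2, TNFRSF10A and TNFRSF10D the likeliest set was used, so their SEs can be too small. Leaving out a library does not undo that choice. Across the 30 members, the log2 fold changes of the 2 tables had a Pearson r of -0.27 and a Spearman rho of -0.19, beside 0.12 and 0.09 over 13186 genes. These are descriptions over genes, which share their libraries and are not independent. Of the 30, 13 were above 0 in both tables, 3 below 0 in both, and 14 had opposite signs.

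Of 24 genes in a list of p53 regulators and relatives, the authors' deposited table calls 0 higher and 1 lower with siSOX9 (3.47% of all genes). That one is HIPK2, a kinase that phosphorylates p53, with 1082 in siSOX9 and 2048 in siCtrl libraries on average (log2 fold change -0.92 in the authors' deposited table, adjusted p = 0.000306). With siY14, 1 was higher and 4 were lower (9.16% of all genes). The lower ones were the damage kinases ATR (log2 fold change -1.25, 2346 with siY14 and 5568 with siCtrl) and ATM (-0.64), the ubiquitin ligase TRIM24 (-0.80) and the damage adaptor TP53BP1 (-0.49), by the authors' deposited table. The higher one was TP73, a relative of p53 (0.61 in the authors' deposited table). Limma-voom called 2 higher and 1 lower of 20 with siSOX9 (16.1% of genes), and 4 higher and 5 lower of 21 with siY14 (26.9%).

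Of 40 other p53-induced genes, 39 were listed, and the authors' deposited table calls 0 higher and 3 lower with siSOX9. They were the stress cytokine GDF15 (log2 fold change -1.43, 4767 with siSOX9 and 12845 with siCtrl), TP53I11 (-1.34) and the cytokine LIF (-0.59), by the authors' deposited table. With siY14, 1 was higher, TP53I13 (0.85), and 4 were lower, the lipid transporter ABCA12 (-1.59), LIF (-0.81), the apoptosome protein APAF1 (-0.78) and TNFAIP8 (-0.59), in the authors' deposited table. LIF was the only one of these genes called in both of the authors' tables, lower in each. The authors' test passed 3.47% of all genes with siSOX9 and 9.16% with siY14. Limma-voom called 5 higher and 4 lower of 32 with siSOX9, and 4 higher and 5 lower of 31 with siY14, against 16.1% and 26.9% of genes in either direction.

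A list of 40 cell cycle genes that p53 lowers through p21 had 1 member higher and 0 lower with siSOX9, and 2 higher and 8 lower with siY14, by the authors' deposited tables (all genes: 1.19% higher and 2.27% lower with siSOX9, 3.81% higher and 5.35% lower with siY14). Limma-voom could test 13 of them with siSOX9, with 1 higher and 0 lower (all genes: 6.64% higher and 9.49% lower). With siY14 it could test 20, with 3 higher and 10 lower (all genes: 13.4% higher and 13.5% lower). With siSOX9 the one called by the authors' test was RRM2, a ribonucleotide reductase subunit (log2 fold change 0.68 in the authors' deposited table). Limma-voom could not test RRM2, so its 1 higher gene was another of the list. With siY14 the lower ones by the authors' test included the motor proteins KIF11 (-1.06), CENPE (-0.95) and KIF23 (-0.72). They also included FANCD2 of crosslink repair (-0.76) and PRC1 of the spindle midzone (-0.75), and the higher ones included E2F1 (0.93), in the authors' deposited table. KIF11 and KIF23 had no limma-voom test. The median of the list was 0.05 with siSOX9 and -0.28 with siY14.

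Marker lists gave the following values beside these results, and their part in the results was not tested. Of 12 epithelial markers, the authors' deposited tables call 1 higher (KRT20) and 2 lower (CEACAM5 and VIL1) with siSOX9 (3.47% of all genes). With siY14 they call 0 higher and 3 lower (KRT20, CDH1 and VIL1), against 9.16% of all genes. VIL1 was thus called lower in both tables, while KRT20 was called higher with siSOX9 and lower with siY14. The summed level of the list was 315421 with siSOX9 and 358396 with siCtrl, and 327092 with siY14 and 437728 with siCtrl. Of 10 stromal markers, 2 were called higher (COL1A1 and COL3A1) and 1 lower (PDGFRB) with siSOX9, and none with siY14, with sums of 182 with siSOX9 and 176 with siCtrl, and 87.4 with siY14 and 147 with siCtrl. None of 7 immune markers was called in either table.

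Library a of the siSOX9 table stood apart in both arms for many of these genes. It was the highest library of both arms in 12 of 28 members, among them MDM2, MDM4, FAS, ZMAT3 and RRM2B, against 30.1% of genes. It was the lowest of both arms in 9, among them CDKN1A, BTG2, GADD45A and PPM1D, against 28.8% of genes. Without library a of each arm, limma-voom called 12 members higher and 1 lower, against 30.6% of genes in either direction, and TNFRSF10B remained the one called lower. The 6 members higher with all libraries were among the 12, beside AEN, PIDD, PPM1D, RRM2B, TRIAP1 and ZMAT3. The labels put 1 sample of each arm in experiment 2, but which library that is cannot be told from the tables, and its part was not tested.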

How the data were processed

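RNA-seq was done on polyadenylated RNA of 13 DLD-1 samples with stranded libraries, per the labels' protocols. The submitters' processing notes name the build hg19 and, as tools, HTSeq, DESeq, TopHat2, HISAT2, Bowtie and SAMtools. Versions, order and strand settings are not given in the sources used here. Per the file headers, the authors deposited for each gene an overall mean and 1 mean for either arm, a signal of read counts divided by size factors, with their ratio as fold change, its log2 value, and a p-value and adjusted p-value. The authors' fold changes and adjusted p-values (threshold 0.05) are the main values.

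Whole reads per library were computed from the 15 significant digits of the arm means for 16319 of 18747 genes (87.0%) with siSOX9 and 15740 of 17706 (88.9%) with siY14. A set was accepted at a posterior weight of at least 0.99. Arm means over 20000 were not tried. Sets close to equal normalised reads within an arm count as likelier, so SDs of highly expressed genes can be too small. Sets whose libraries deviate together as in other genes of the arm also count as likelier. Genes whose mean reached 10 entered limma-voom (limma 3.58.1, R 4.3.3) on recovered reads, library sizes set by the recovered size factors, with Benjamini-Hochberg adjustment over all genes tested. Both steps were tested on simulated data in which libraries varied independently of each other. Those data thus did not cover the siY14 libraries that deviate in pairs, nor library a of the siSOX9 table. Alternatives were another adjustment set, other thresholds, TMM and RLE factors, no filter, pseudocounts, centring and leaving out each library.

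The members, gene lists and tests were chosen with earlier results of these data known. Values of every member are given, in full for those past the authors' threshold and for MDM2 and CDKN1A; of each list, up to 6 called genes are named. Values per library were also given, chosen after they were seen, for members that limma-voom called, that lay near a threshold or whose libraries split. Estimated depth is 24.9 to 185 M counts per library. No per-sample column went unused. Levels are not compared between genes. Results for 2 genes of the lists are not reported here.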

Additional observations from a re-analysis of the deposited data

Results flagged for a closer look

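In groups of 4 knockdown libraries, 5 values lay far from the other 3 libraries of their arm, of 55 groups tested, where chance gives about 1 in 20. In the siSOX9 arm the highest library had 4843 normalised reads of MDM2 (next 3414), 1312 of MDM4 (next 918), 2349 of RPS27L (next 1633) and 3436 of RRM2B (next 2580). In each of these 4 genes it was library a, the deepest. In the siY14 arm the highest library had 6331 of PLK2 (next 6204), a gap that is small beside the level.

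The effects of siY14 and siSOX9 differed by the joint limma-voom model for 6 of 27 members, a share near that of all genes (21.4%). The siY14 effect minus the siSOX9 effect was 0.99 for PLK3, 0.49 for TNFRSF10A, 0.47 for AEN, -0.52 for PLK2, -0.60 for C12orf5 and -0.66 for TNFRSF10D (log2). The 2 effects were measured in separate experiments, each against its own controls, so a difference between experiments and one between knockdowns cannot be told apart.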

How the results depend on the processing

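The median log2 fold change of members stayed at 0.13 to 0.14 with siSOX9 and at 0.036 to 0.038 with siY14 under pseudocounts of 1 and 10, other minimum means and centring. Member calls with siSOX9 (1 by the authors' test) numbered 2 when p-values were adjusted over genes with a mean of at least 10, 0 at a threshold of 0.01 and 3 at 0.1. They numbered 7 by limma-voom (16.1% of all genes), with no filter (9.4%) and with RLE or TMM factors (16.1% and 15.9%), 4 to 8 without 1 library (10% to 20.3%), 13 without library a of each arm (30.6%), and 19 with depth class (library a or not) as a term, which was chosen after seeing the data and called 48.7% of all genes. Member calls with siY14 (3 by the authors' test) numbered 1 at a threshold of 0.01, 6 by limma-voom (26.9%), 5 with no filter (17.7%), 7 with RLE or TMM factors (27% and 27.1%) and 0 to 8 without 1 library (0.00858% to 32.3%), with 0 without either siCtrl library. By the authors' test with siY14, 4 members passed at 0.1. It called 3 when only genes averaging 10 or more normalised reads entered the adjustment. For the authors' test at these other thresholds and this adjustment, the share of all genes that passed is not given here, in either table. The member counts at those settings thus have no background beside them. The cause of these shifts between tests was not tested. The joint difference called 6 members (21.4%), 6 with RLE or TMM factors (21.3% and 21.5%), 9 without library a of each siSOX9-table arm (22.7%), and 2 to 9 without 1 library (6.77% to 25.4%). No member called by the authors' test changed direction in a setting run for it. No paired analysis was possible because the deposited arms and the recovered libraries carry no replicate numbers, and the depth class term matches libraries by depth alone. Depth limits TP53INP1, PHLDA3 and SPATA18, which had fewer than 100 normalised reads in every library.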

Other observations

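Within the siY14 arm, the deviations of the libraries from the arm mean over 9494 genes correlated at 0.92 between a and c and at 0.91 between b and d, and at about -0.96 across these pairs. Where several sets of reads gave a mean, the choice among them favoured such a pattern, so these correlations can be too strong. Over the members, the coefficient of variation of the siY14 libraries had a median of 9.22% and that of the siCtrl libraries 3.01%. In the siSOX9 table it was 11.7% for siSOX9 and 10.4% for siCtrl libraries.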
